A study of Mus musculus with 6 samples.

Results

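Crypt base columnar cells are the slender dividing stem cells wedged between Paneth cells at the bottom of the intestinal crypt, and the 10 genes described here are markers used to recognise them: Lgr5, Olfm4, Ascl2, Smoc2, Rgmb, Kcne3, Tnfrsf19, Cdca7, Prom1 and Msi1. They were taken by symbol from a deposited table of 21534 gene rows, in which each of the 10 has 1 row, and all 10 passed the filter on low counts that left 13700 genes to test. Crypt base columnar cells depend on R-spondin signals, which act through the receptor encoded by Lgr5 and its relatives. These cells also depend on Wnt signals and on Notch signals from neighbouring Paneth cells. When they leave the crypt base these signals weaken and their daughters become absorptive or secretory cells.

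The RNA came from stem cell-enriched organoids (closed epithelial cultures) that originated in the ileum of C57Bl/6 mice of wild-type genotype. In both groups the organoids first spent 96 hours with 10 µM CHIR99021, a GSK3 inhibitor that switches on Wnt signalling inside the cell. The 3 retinoic acid libraries then had 24 hours of 10 µM retinoic acid, an active vitamin A metabolite, and the 3 vehicle libraries had DMSO in its place. The labels give no animal or culture behind a library number, so the p-values measure the spread between these libraries, which may be technical. CHIR99021 acts below the Wnt receptors and was given to every culture, vehicle included.

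Libraries held 15080190 to 21833846 gene-assigned reads with retinoic acid and 14919144 to 16927696 with vehicle, and the 10 markers had between 170 and 7394 reads each in any library. Levels are given as CPM, the reads of a gene per 1000000 reads of the library after trimmed-mean (TMM) scaling. The epithelial label fitted its defining markers: Epcam, a surface adhesion protein of epithelia, stood at 1390 ± 28.1 CPM with retinoic acid and 1510 ± 59.2 CPM with vehicle (SD, n = 3 each). Summed over 9 markers of fibroblasts, smooth muscle, endothelium and leukocytes, the level was 0.758 to 2.58 CPM with retinoic acid and 1.73 to 4.86 CPM with vehicle. In the retinoic acid libraries the leukocyte gene Ptprc had no read. Library 3 of each group stood apart from the other 4 libraries on the second principal component, which held 20% of the variance. In bulk RNA, a change in the share of cells that express a gene and a change in its RNA per cell cannot be told apart. For the markers these would be fewer stem cells or less marker RNA per cell, and the limit holds for every difference below.

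With retinoic acid 7 of the 10 markers were lower and 3 were not called. Olfm4 fell by 68.6%, Lgr5 fell by 35.6% and Smoc2 fell by 35.6% too. Kcne3 fell by 34.3%, Msi1 fell by 30.5%, Rgmb fell by 22.3% and Cdca7 fell by 16.2%. The transcription factor gene Ascl2, the Wnt target Tnfrsf19 and the broadly expressed crypt gene Prom1 were those that did not pass. The test was edgeR's quasi-likelihood test with Benjamini-Hochberg adjustment over the 13700 genes at a threshold of 0.05, by which 4.09% of all tested genes were lower and 5.37% higher. None of the 10 was higher, either by that test, at an unadjusted p under 0.05, by DESeq2 or by limma-voom, and all 10 fitted log2 fold changes were below 0. Their median log2 fold change was −0.44, where that of all tested genes was −0.01. In 8 of the 10 every retinoic acid library lay below every vehicle library, which was so for 12.6% of tested genes. Summed over the 10 markers, the level was 795 to 814 CPM with retinoic acid and 1050 to 1100 CPM with vehicle. In the authors' deposited table the same 7 markers have an FDR under 0.05, the weakest being Cdca7 at 0.0474.

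**Figure D1:**
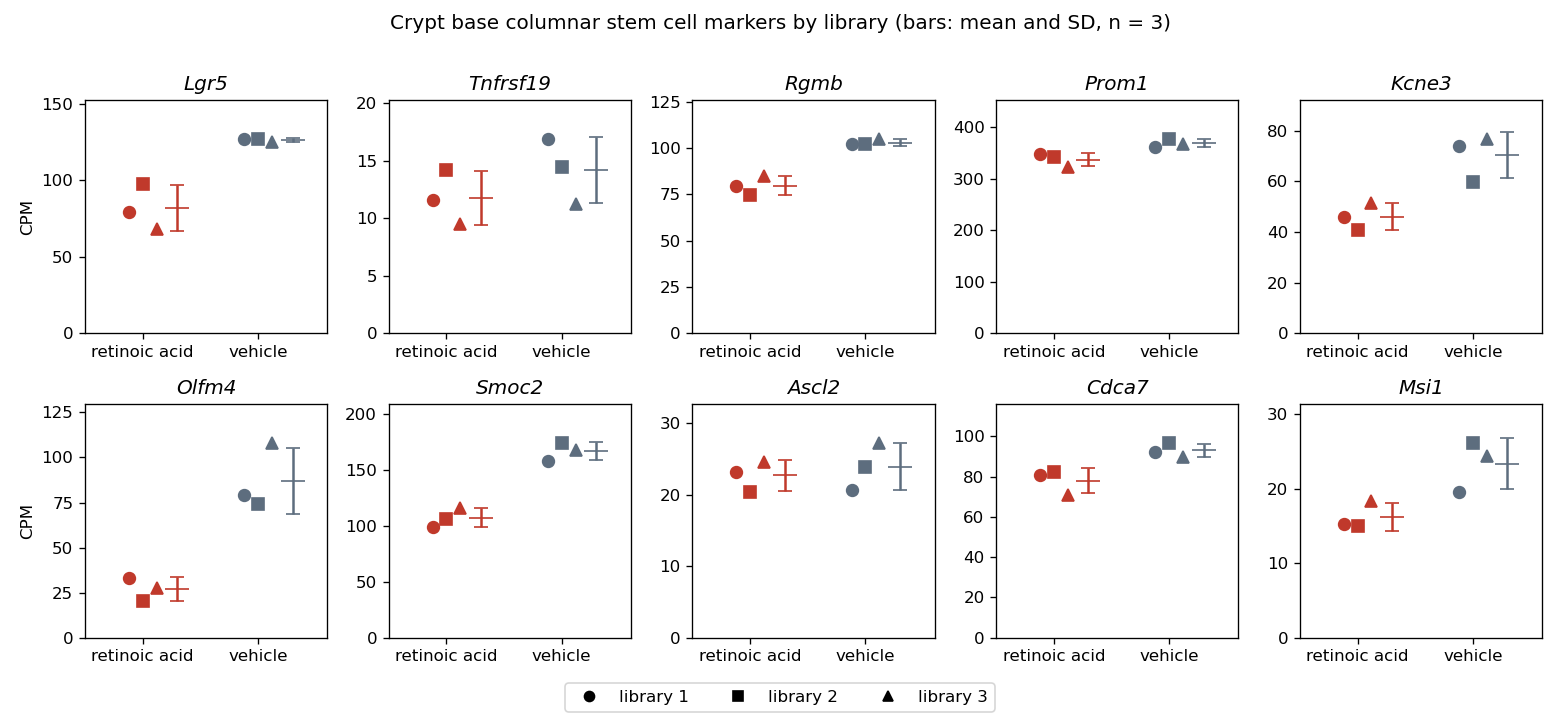
Level of each marker in CPM (vertical axes, from 0, each with its own scale) in the retinoic acid (left, red) and vehicle (right, grey) libraries. Points are single libraries, and the bars are the mean and SD of 3. The groups do not overlap for any marker but Tnfrsf19 and Ascl2, and in proportion the widest gap is that of Olfm4, at 20.4 to 33.3 CPM with retinoic acid and 74.3 to 108 CPM with vehicle.

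Olfm4 was the marker that fell most, and Ascl2 was not called. Of the 4 called markers with a listed start-site region (Olfm4, Rgmb, Kcne3 and Cdca7), Cdca7 alone held an exact match to the nuclear receptor motif AGGTCA. The start-site regions of Olfm4, Cdca7 and Ascl2 are printed for comparison. Each is 300 bases (250 before and 50 after the annotated start, 5′ to 3′ on the gene's strand) from RefSeq on GRCm38.p6, the assembly also called mm10, at chr14:80000052-80000351 (plus strand), chr2:72475969-72476268 (plus strand) and chr7:142969215-142969514 (minus strand). Capitals mark matches, on either strand, to the RBPJ core TGGGAA of the Notch effector or the motif AGGTCA to which retinoid and related receptors bind.
Olfm4: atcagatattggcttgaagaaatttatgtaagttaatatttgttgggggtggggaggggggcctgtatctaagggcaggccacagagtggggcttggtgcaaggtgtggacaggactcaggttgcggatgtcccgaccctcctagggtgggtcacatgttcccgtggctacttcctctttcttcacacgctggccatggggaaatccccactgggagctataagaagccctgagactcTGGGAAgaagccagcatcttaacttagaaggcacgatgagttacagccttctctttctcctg
Cdca7: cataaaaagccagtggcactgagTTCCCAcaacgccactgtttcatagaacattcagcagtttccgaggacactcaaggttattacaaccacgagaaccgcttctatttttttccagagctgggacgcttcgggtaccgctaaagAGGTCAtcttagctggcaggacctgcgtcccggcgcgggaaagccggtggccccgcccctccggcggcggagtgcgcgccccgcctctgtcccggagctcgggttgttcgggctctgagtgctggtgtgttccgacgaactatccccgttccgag
Ascl2: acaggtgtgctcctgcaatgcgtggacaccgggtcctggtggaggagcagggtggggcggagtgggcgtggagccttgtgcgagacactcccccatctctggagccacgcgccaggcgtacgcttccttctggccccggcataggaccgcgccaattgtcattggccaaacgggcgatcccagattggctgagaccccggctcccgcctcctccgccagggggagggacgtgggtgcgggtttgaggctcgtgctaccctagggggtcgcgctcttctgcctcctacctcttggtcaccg
A start-site region was matched for 7 of the 10 markers (Olfm4, Ascl2, Rgmb, Kcne3, Tnfrsf19, Cdca7 and Prom1), taking the annotated start nearest to that of the deposited row. None of the 7 held the TCF/LEF motif ATCAAAG, through which Wnt signals act, and 3.7% of all 32851 listed regions did. The RBPJ core was found in 3 of the 7 (Olfm4, Cdca7 and Prom1) and in 25.6% of all regions. The nuclear receptor motif was found in 1 of the 7, Cdca7, and in 16.3% of all regions. In Olfm4 the RBPJ core began 12 bases before the start. A match describes letters in a window and not a bound site, and its absence says nothing of the factor. Only exact letters were searched, so GGGTCA in the Olfm4 region, which differs from AGGTCA in its first letter, is not marked.

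Lgr5 encodes the R-spondin receptor by which these cells are defined (ENSMUSG00000020140, mm10 chromosome 10, bases 115450311 to 115587780, minus strand). It had 79.1, 97.8 and 68.2 CPM in retinoic acid libraries 1, 2 and 3, against 127, 127 and 125 CPM in vehicle libraries 1, 2 and 3. The vehicle libraries were almost identical and the retinoic acid libraries were spread, with library 2 nearest to vehicle, but the groups did not overlap. The log2 fold change was −0.64 (standard error, SE, 0.10, adjusted p = 0.000933), and between −0.78 and −0.52 with any 1 library left out. The second receptor gene, Tnfrsf19, encodes TROY, a tumour necrosis factor receptor family member that is a Wnt target in these cells (ENSMUSG00000060548, chromosome 14, 60963834 to 61046855). It had 11.6, 14.2 and 9.5 CPM with retinoic acid, against 16.9, 14.5 and 11.2 CPM with vehicle. Its groups overlapped, since vehicle library 3 was lower than retinoic acid libraries 1 and 2. With 170 to 293 reads a library it was the least counted marker, and its log2 fold change of −0.29 had a 95% interval from −0.65 to 0.08 (adjusted p = 0.368). That interval holds both no change and a fall as large as that of Lgr5.

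Rgmb encodes a membrane-anchored co-receptor for bone morphogenetic proteins, signals that restrain stem cells (ENSMUSG00000048027, chromosome 17, 15806253 to 15826586). Its level was 79.4, 74.9 and 85.1 CPM in retinoic acid libraries 1 to 3, against 102, 102 and 105 CPM in vehicle libraries 1 to 3. Both groups were tight and well apart, and the log2 fold change was −0.36 (SE 0.07, adjusted p = 0.0027). Kcne3, which encodes an accessory subunit of potassium channels used in chloride secretion (ENSMUSG00000035165, chromosome 7, 100176670 to 100184869), had 45.9, 40.8 and 51.4 CPM with retinoic acid, against 74.1, 59.9 and 76.8 CPM with vehicle. In both groups library 2 was the lowest, and the highest retinoic acid library still lay under the lowest vehicle library. The log2 fold change was −0.61 (SE 0.10, adjusted p = 0.0017). Only 9 exonic bases of Kcne3 are shared with an antisense gene, Gm34821.

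Prom1 encodes prominin-1 (CD133), a protein of membrane protrusions found on stem cells and on their dividing daughters (ENSMUSG00000029086, chromosome 5, 43993625 to 44102032). It had 347, 341 and 323 CPM with retinoic acid, against 362, 377 and 367 CPM with vehicle. Every retinoic acid library was below every vehicle library, but by little, and the mean was 337 ± 12.1 CPM with retinoic acid and 369 ± 7.33 CPM with vehicle (SD, n = 3 each). The log2 fold change was −0.13, with a 95% interval from −0.25 to −0.01, an unadjusted p of 0.0321 and an adjusted p of 0.179 in edgeR's quasi-likelihood test. The interval thus allows a fall of 15.8% at most and leaves out one as large as that of Lgr5. Of its annotated exonic bases 5.91% are shared with Gm16401, an antisense gene with 262 reads over all 6 libraries, and whether counting used strand is not given in the sources used here.

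Both markers of secreted proteins fell. Olfm4 encodes olfactomedin 4, a glycoprotein whose gene responds to Notch in the mouse crypt (ENSMUSG00000022026, chromosome 14, 80000302 to 80021930). It had 33.3, 20.4 and 27.3 CPM in retinoic acid libraries 1, 2 and 3, against 78.9, 74.3 and 108 CPM in vehicle libraries 1, 2 and 3. The gap between the groups was wider than the range within either. The log2 fold change was −1.67 (SE 0.16, adjusted p = 7.43e-06), and −1.85 to −1.49 with any 1 library left out. Of its exonic bases 5.17% are shared with Gm6999, a long non-coding RNA gene on the same strand. Smoc2 encodes a secreted calcium-binding matrix protein that modulates growth factor signals (ENSMUSG00000023886, chromosome 17, 14279506 to 14404790). Its level was 99.3, 106 and 116 CPM with retinoic acid, against 158, 174 and 168 CPM with vehicle. Both groups were compact, and the log2 fold change of −0.63 (SE 0.07, adjusted p = 4.23e-05) had a 95% interval of −0.79 to −0.48.

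Of the 3 markers that act inside the cell on transcription or RNA, Msi1 and Cdca7 fell and Ascl2 was not called. Ascl2 encodes a basic helix-loop-helix factor required for the stem cell state in the mouse crypt (ENSMUSG00000009248, chromosome 7, 142966822 to 142969264). It had 23.2, 20.3 and 24.6 CPM with retinoic acid, against 20.6, 23.9 and 27.2 CPM with vehicle, and the groups overlapped throughout. Its log2 fold change was −0.07 (95% interval −0.32 to 0.18, adjusted p = 0.79) and took a value of 0.03 without vehicle library 3. The interval allows a fall of up to 19.8% and a rise of up to 12.9%, and so leaves out a fall of the size seen for Lgr5. Msi1 encodes Musashi-1, an RNA-binding protein that regulates translation (ENSMUSG00000054256, chromosome 5, 115429599 to 115455698). It had 15.2, 15 and 18.3 CPM with retinoic acid, against 19.5, 26.1 and 24.4 CPM with vehicle. The groups did not overlap, with retinoic acid library 3 just under vehicle library 1. Its log2 fold change was −0.53 (SE 0.13, adjusted p = 0.0156), which rose above 0.05 when retinoic acid library 1 (0.08), retinoic acid library 2 (0.0634) or vehicle library 2 (0.0961) was left out. Cdca7, a chromatin factor gene switched on by E2F and Myc in dividing cells (ENSMUSG00000055612, chromosome 2, 72476159 to 72486893), had 80.7, 82.4 and 70.8 CPM with retinoic acid, against 92.4, 96.6 and 89.8 CPM with vehicle. The groups did not overlap, and the log2 fold change was −0.25 (SE 0.07, adjusted p = 0.0379). This was the weakest of the 7 calls: it remained with retinoic acid library 2 left out (adjusted p = 0.0466), and was lost on leaving out retinoic acid library 1 (0.0874) or 3 (0.1), or vehicle library 1 (0.0955), 2 (0.151) or 3 (0.0515).

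**Figure D2:**
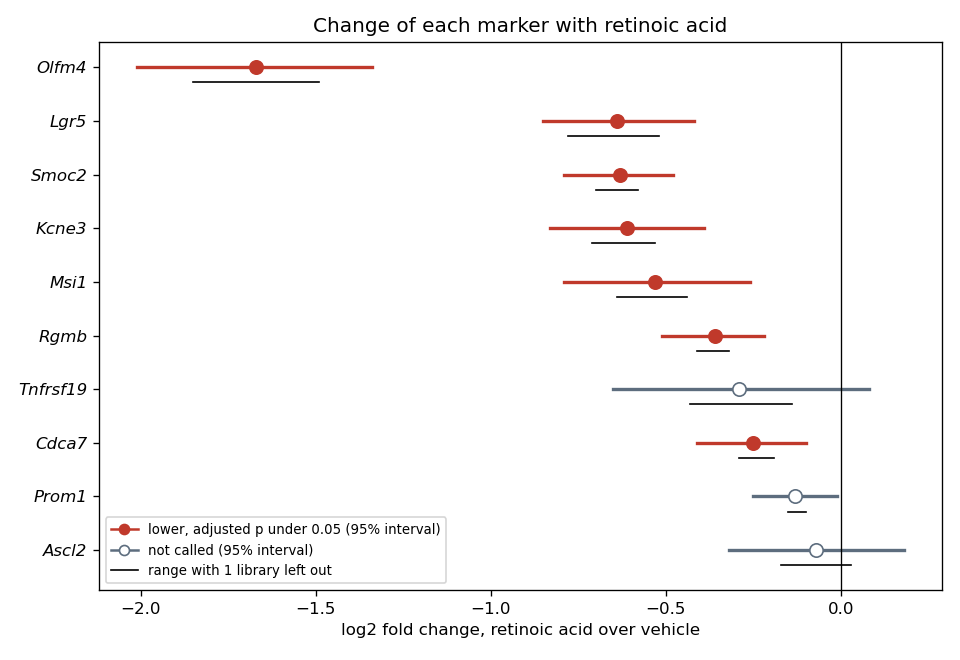
Log2 fold change of each marker, retinoic acid over vehicle (horizontal axis), with its 95% interval from edgeR's fit (thick line) and the range over fits with 1 library left out (thin line). Filled red points were called lower and open points were not called. Olfm4 at −1.67 stands below the rest, the other called markers lie from −0.64 to −0.25, and the open points of Tnfrsf19, Prom1 and Ascl2 lie at −0.29, −0.13 and −0.07.

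**Figure D3:**
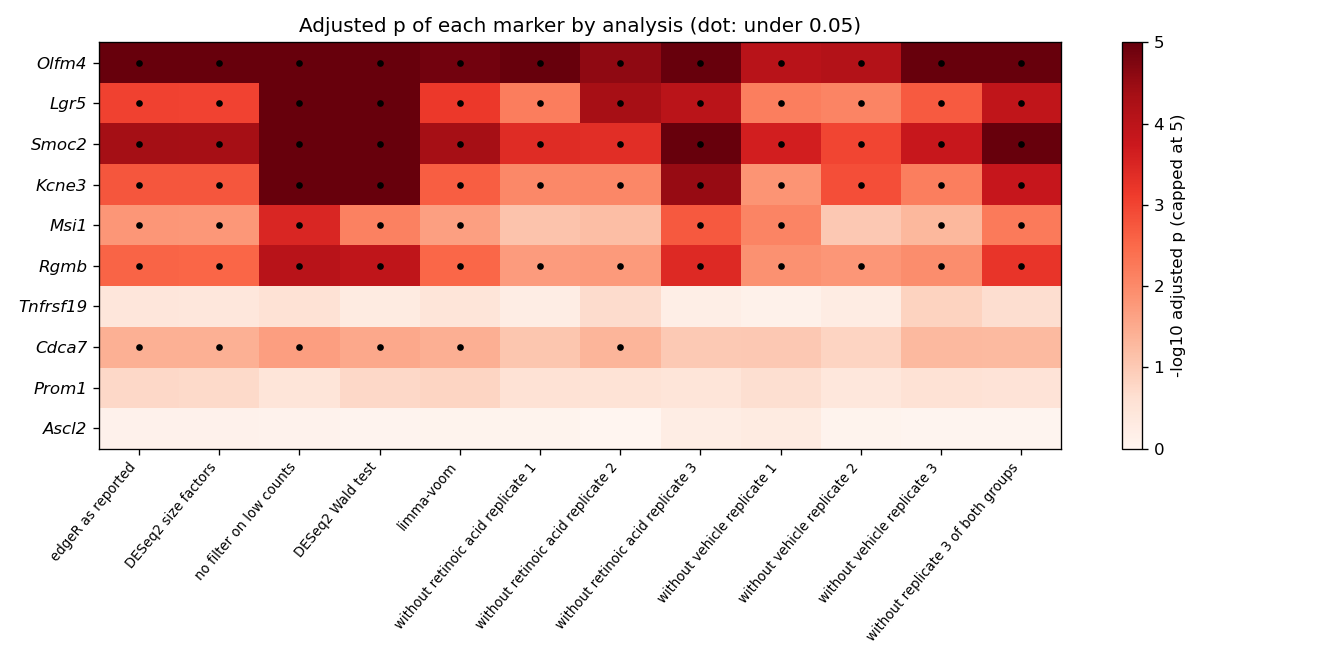
Adjusted p of each marker (rows) as −log10, capped at 5, in the reported edgeR test and in alternative analyses (columns), with a dot where it was under 0.05. Olfm4, Lgr5, Smoc2, Kcne3 and Rgmb have a dot in every column, Msi1 and Cdca7 in some, and Tnfrsf19, Prom1 and Ascl2 in none of those drawn. The fit with the library number as a block is not drawn, and it was the 1 alternative that called Prom1 (adjusted p = 0.0498).

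Whether a marker moved differently from Lgr5 was asked directly, from the ratio of the 2 genes within each library (log2 of CPM plus 0.5). Relative to Lgr5, Olfm4 stood at −1.24, −2.23 and −1.31 in retinoic acid libraries 1 to 3 and at −0.69, −0.77 and −0.21 in vehicle libraries 1 to 3, a difference of −1.03 with no overlap. Prom1 relative to Lgr5 stood at 2.12, 1.8 and 2.24 with retinoic acid and 1.51, 1.56 and 1.55 with vehicle (difference 0.51). The ratios of Cdca7 (0.39) and Tnfrsf19 (0.38) were also higher in every retinoic acid library than in any vehicle library. For each of these 4 the two-sided exact permutation p was 0.1, the smallest that 3 libraries against 3 can give, so none of the 9 ratios could pass 0.05 before or after adjustment. Ascl2 relative to Lgr5 differed by 0.57 with overlap (exact p = 0.2), since retinoic acid library 2 (−2.24) lay under vehicle library 3 (−2.18). Smoc2 (0.01), Kcne3 (0.04), Msi1 (0.13) and Rgmb (0.28) overlapped as well, with exact p from 0.4 to 1.

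Because Lgr5 itself was spread among the retinoic acid libraries, the ratios were also taken to Smoc2, a choice made after the values were seen. Ascl2 relative to Smoc2 was −2.08, −2.36 and −2.22 with retinoic acid and −2.9, −2.84 and −2.6 with vehicle, a difference of 0.56 without overlap (exact p = 0.1). Prom1 (0.50), Cdca7 (0.38), Rgmb (0.27) and Olfm4 (−1.04) relative to Smoc2 did not overlap either, at the same p. The difference of Tnfrsf19 was 0.37 with overlap (exact p = 0.3), and Lgr5 relative to Smoc2 differed by −0.01 (exact p = 0.9). Olfm4 was thus lower, and Prom1 and Cdca7 higher, in every retinoic acid library than in any vehicle library relative to either divisor. Lgr5 and Smoc2 had nearly equal log2 fold changes (−0.64 and −0.63), so the second divisor is no separate support.

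**Figure D4:**
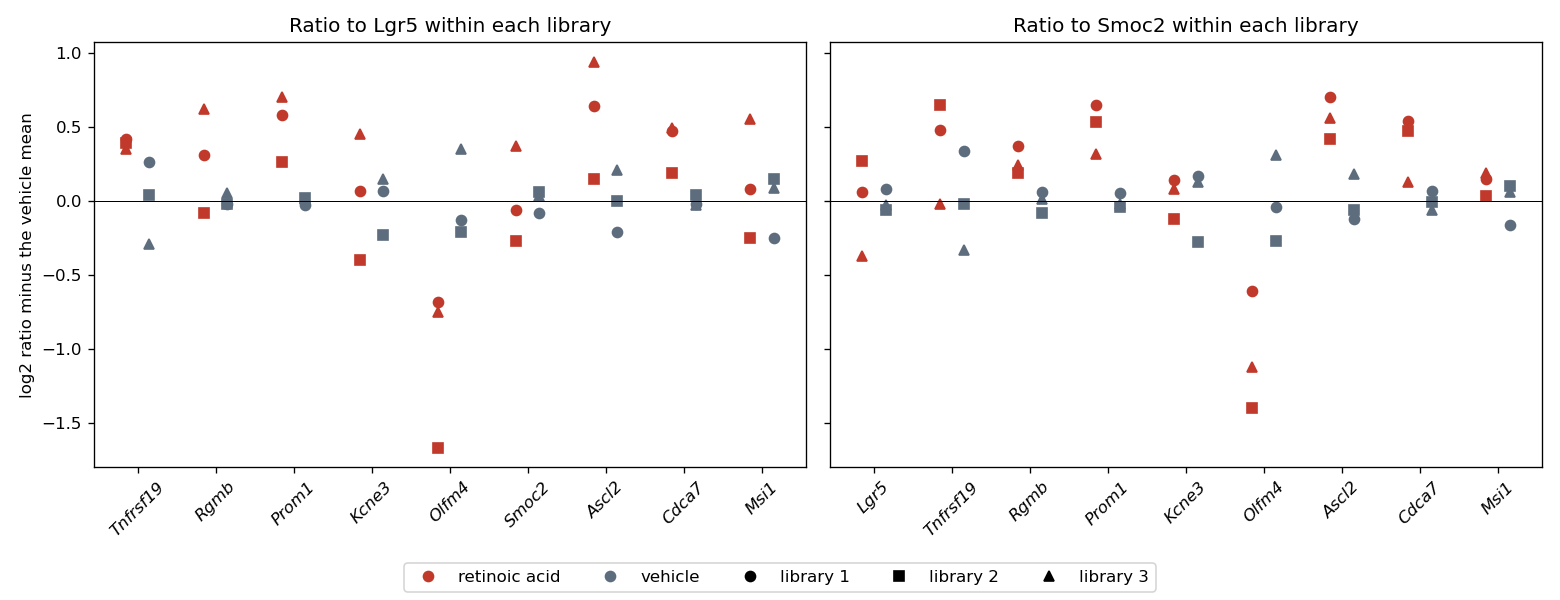
Log2 ratio of each marker to Lgr5 (left panel) or to Smoc2 (right panel) within a library, drawn as the difference from the vehicle mean, for retinoic acid (red, left of each pair) and vehicle (grey) libraries. Marker shapes are library numbers. With retinoic acid the points of Olfm4 lie below 0, and those of Ascl2, Prom1 and Cdca7 above 0, in both panels. Those of Tnfrsf19 (left panel) and Rgmb (right panel) lie above every vehicle point. Those of Kcne3 and Msi1 overlap the vehicle points in both panels, with Msi1 above 0 in the right panel.

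Levels can be set beside each other between genes only per length, here as CPM per kilobase of annotated exons (GENCODE M21). With retinoic acid the order was Prom1 (47.0 ± 1.69), Kcne3 (25.9 ± 2.97), Cdca7 (24.3 ± 1.95), Smoc2 (15.4 ± 1.21), Ascl2 (14 ± 1.35), Rgmb (10.4 ± 0.666), Olfm4 (9.11 ± 2.18), Lgr5 (7.96 ± 1.46), Msi1 (2.79 ± 0.318) and Tnfrsf19 (2.48 ± 0.493 CPM per kilobase, SD, n = 3). With vehicle it was Prom1 (51.4 ± 1.02), Kcne3 (39.5 ± 5.11), Olfm4 (29.4 ± 6.11), Cdca7 (29.0 ± 1.07), Smoc2 (24.0 ± 1.19), Ascl2 (14.7 ± 2.04), Rgmb (13.4 ± 0.234), Lgr5 (12.3 ± 0.134), Msi1 (4.02 ± 0.585) and Tnfrsf19 (3.00 ± 0.609). Olfm4 was thus the marker that changed place most, level with Cdca7 and Kcne3 in vehicle libraries and level with Rgmb and Lgr5 in retinoic acid libraries. Neighbours whose libraries overlapped with retinoic acid were Kcne3 and Cdca7, Smoc2 and Ascl2, Rgmb and Olfm4, Olfm4 and Lgr5, and Msi1 and Tnfrsf19. With vehicle they were Kcne3 and Olfm4, Olfm4 and Cdca7, Ascl2 and Rgmb, and Msi1 and Tnfrsf19. The exons counted include every annotated transcript, so a gene whose organoid transcripts are shorter is placed too low.

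Other genes reported as enriched in Lgr5-expressing cells went both ways: of 17 tested 4 were lower and 2 higher, with a median log2 fold change of −0.12. Slc12a2, the sodium, potassium and chloride cotransporter gene, had 532, 559 and 560 CPM with retinoic acid, against 970, 985 and 968 CPM with vehicle (log2 fold change −0.82, SE 0.05, adjusted p = 1.32e-07). Lgr4, a second R-spondin receptor gene, had a smaller log2 fold change than Lgr5 (the difference was not tested), with 222 ± 2.54 and 273 ± 5.70 CPM (SD, n = 3 each, retinoic acid and vehicle; −0.30, adjusted p = 0.00277). Ephb3 (−0.39), which encodes an ephrin receptor of the crypt base, and Mex3a (−0.30, adjusted p = 0.0282), an RNA-binding protein gene of a slower-dividing Lgr5-positive population, made up the 4. Mex3a was not called on leaving out retinoic acid library 1 or vehicle library 1, which left 3 lower. The 2 that rose were Phlda1 (log2 fold change 0.34, adjusted p = 0.000692) and the ephrin receptor gene Ephb2 (0.25, adjusted p = 0.0065). Ephb2 had 482, 475 and 472 CPM with retinoic acid, against 397, 399 and 407 CPM with vehicle. Sox9, a transcription factor gene of the crypt base, was not called (−0.11, adjusted p = 0.467). Of 4 proposed markers of slow-cycling crypt cells (Bmi1, Hopx, Lrig1 and Tert) only Hopx was lower (−0.28), and it was not called without retinoic acid library 1 (adjusted p = 0.0722); none was higher, also at an unadjusted p under 0.05, by DESeq2 or by limma-voom.

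Among 21 tested genes of the Wnt pathway 2 were lower and 2 higher, with a median log2 fold change of 0.01. The lower ones were Lgr4 and Apcdd1, a Wnt inhibitor gene (−0.66), and the higher ones were the receptor genes Fzd5 (0.28) and Fzd7 (0.24). Fzd5 lost its call on leaving out vehicle library 2 (adjusted p = 0.0687), and Fzd7 on leaving out any library but retinoic acid library 3 (0.0562 to 0.0928). Axin2, the feedback gene most used to read out the pathway, had 192, 206 and 205 CPM with retinoic acid, against 214, 226 and 238 CPM with vehicle. Its groups did not overlap, but its log2 fold change of −0.17 was not called (adjusted p = 0.101), except with the library number as a block (0.0145). The list mixes signalling components with genes that Wnt signals switch on. Some of the latter were picked out after their values were seen. Of these, Nkd1 (−0.49), Znrf3 (−0.12), Sp5 (−0.12), Rnf43 (−0.09), Ccnd1 (0), Myc (0.03) and Notum (0.28) were not called by edgeR. Apcdd1, called lower by edgeR (adjusted p = 0.00677), was not among those picked. Notum had 4 to 11 reads a library and Nkd1 13 to 41. For Nkd1, Znrf3 and Rnf43 every retinoic acid library lay below every vehicle library, which was so for 12.6% of tested genes. In Nkd1 the gap was only from 1.77 CPM (retinoic acid library 3) to 1.78 CPM (vehicle library 3). The groups overlapped for Sp5, Ccnd1, Myc and Notum. Of 10 tested Notch genes 4 were lower (Notch1, −0.64; Dll1, −0.61; Nrarp, −0.31; Jag1, −0.30) and none higher by edgeR, DESeq2 or limma-voom, with 1 higher at an unadjusted p under 0.05. The 4 became 1 on leaving out retinoic acid library 1 and 2 on leaving out vehicle library 1 or 2. Hes1, a direct target of the Notch receptors, was not called (0.08, adjusted p = 0.613), beside the fall of the Notch-responsive Olfm4. Nrarp, also a Notch target, was called lower by edgeR (adjusted p = 0.0381). It was not called on leaving out retinoic acid library 1 or 3, or vehicle library 1 or 2 (0.0507 to 0.203).

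Proliferation genes moved with the markers. Of 18 genes of DNA replication and mitosis 13 were lower, with a median log2 fold change of −0.49, and none was higher, also at an unadjusted p under 0.05, by DESeq2 or by limma-voom. Mki67, which encodes the proliferation antigen Ki-67, had 113, 134 and 105 CPM with retinoic acid, against 193, 168 and 191 CPM with vehicle (log2 fold change −0.65, SE 0.09). Subunit genes of the MCM helicase fell likewise, Mcm6 by a log2 fold change of −0.70, Mcm5 of −0.61 and Mcm2 of −0.53. Summed over the 18 genes, the level was 568 to 644 CPM with retinoic acid and 814 to 872 CPM with vehicle. Their part in the lower level of the stem cell markers was not tested.

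The likeness of other genes to a marker was measured as the distance between log2 CPM profiles over the 6 libraries. Each profile was centred on its own mean. The search covered 8952 genes that averaged 10 CPM or more, after leaving out genes with Gm-number, Rik or clone-type symbols. The 5 genes nearest to Lgr5 were E2f7 (distance 0.16), Slfn9 (0.19), Mki67 (0.20), Auts2 (0.21) and Ccnf (0.21). Their log2 fold changes ran from −0.65 to −0.54, and in 3 of them, E2f7, Mki67 and Ccnf, the gene is known for its periodic expression in the cell cycle. The 5 nearest to Olfm4 were further off: Slc34a2 (0.65), Slc5a8 (0.71), Rgs2 (0.87), Ces2a (1.06) and Ace (1.08). Slc34a2 encodes a phosphate transporter, Slc5a8 a carboxylate transporter, Rgs2 a G protein regulator, Ces2a a carboxylesterase and Ace the angiotensin-converting enzyme. Their log2 fold changes ran from −1.89 to −1.09, and the smallest of these distances was larger than any of the 5 to Lgr5. All 10 neighbours were called lower, but E2f7 was not on leaving out retinoic acid library 1 (adjusted p = 0.0931) or vehicle library 1 (0.072), nor Ccnf on leaving out retinoic acid library 1 (0.055). Because the distance takes in the difference between the groups, the fold changes of near neighbours resemble that of the marker by construction.

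Markers of the other epithelial cell types did not all move the same way. Fitted log2 fold changes were below 0 for 8 of 9 Paneth, 5 of 10 enterocyte and 5 of 7 goblet genes. They were also below 0 for 5 of 5 enteroendocrine and 2 of 4 tuft genes, and for 7120 of all 13700 tested genes. Of 9 Paneth cell genes 4 were lower and 1 higher (median −0.48): Cd24a (−0.56), Ang4 (−0.48), Mptx1 (−1.34) and Wnt3 (−0.53) fell, and Mmp7 (0.63) rose. Their summed level was 4970 to 5230 CPM with retinoic acid and 5560 to 6100 CPM with vehicle, and the lysozyme gene Lyz1 was not called by edgeR (−0.16, adjusted p = 0.072). It lay near the threshold: Lyz1 was called lower by DESeq2 (adjusted p = 0.0487), by limma-voom (0.0481), without a count filter (0.0458), on leaving out retinoic acid library 3 (0.0206) and on leaving out library 3 of both groups (0.0138). Of 10 enterocyte genes 2 were higher and 1 lower (median 0.04). The fatty acid-binding protein genes Fabp1 (4.71) and Fabp2 (0.60) rose, and the alkaline phosphatase gene Alpi (−0.83) fell; 4 were lower without retinoic acid library 3. The vehicle level of Fabp1 was 0.692 ± 0.0847 CPM (SD, n = 3), so its fold is uncertain. Their summed level was 1230 to 1460 CPM with retinoic acid and 1230 to 1380 CPM with vehicle.

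Of 7 goblet cell genes 1 was higher, the mucus component gene Clca1 (log2 fold change 2.92), and 2 were lower, Agr2 (−0.50) and Spdef (−0.30), with a median of −0.17. On leaving out a library the number of lower goblet genes was 1 (retinoic acid library 1 or 2), 4 (retinoic acid library 3) or 0 (vehicle library 1 or 2). The summed goblet level was 4870 to 5390 CPM with retinoic acid and 4630 to 5180 CPM with vehicle. Of 5 enteroendocrine genes 2 were lower, Insm1 (−0.49) and Neurog3 (−0.40), with a median of −0.10, and Neurog3 lost its call whichever library was left out. None was higher by edgeR, DESeq2, limma-voom or an unadjusted p under 0.05. Their sum was 767 to 960 CPM with retinoic acid and 734 to 1020 CPM with vehicle. None of 4 tuft cell genes was called by those tools or at an unadjusted p under 0.05 (median 0.10, sum 15.4 to 19 CPM with retinoic acid and 10.9 to 19.8 CPM with vehicle). None of 6 epithelial genes was called by edgeR or limma-voom (median 0.04), with 2 higher and 1 lower at an unadjusted p under 0.05, 2 higher by DESeq2 and 1 higher without retinoic acid library 3. Their sum was 6910 to 6990 CPM with retinoic acid and 6760 to 6810 CPM with vehicle. The part of any of these cell types in the marker differences was not tested.

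**Figure D5:**
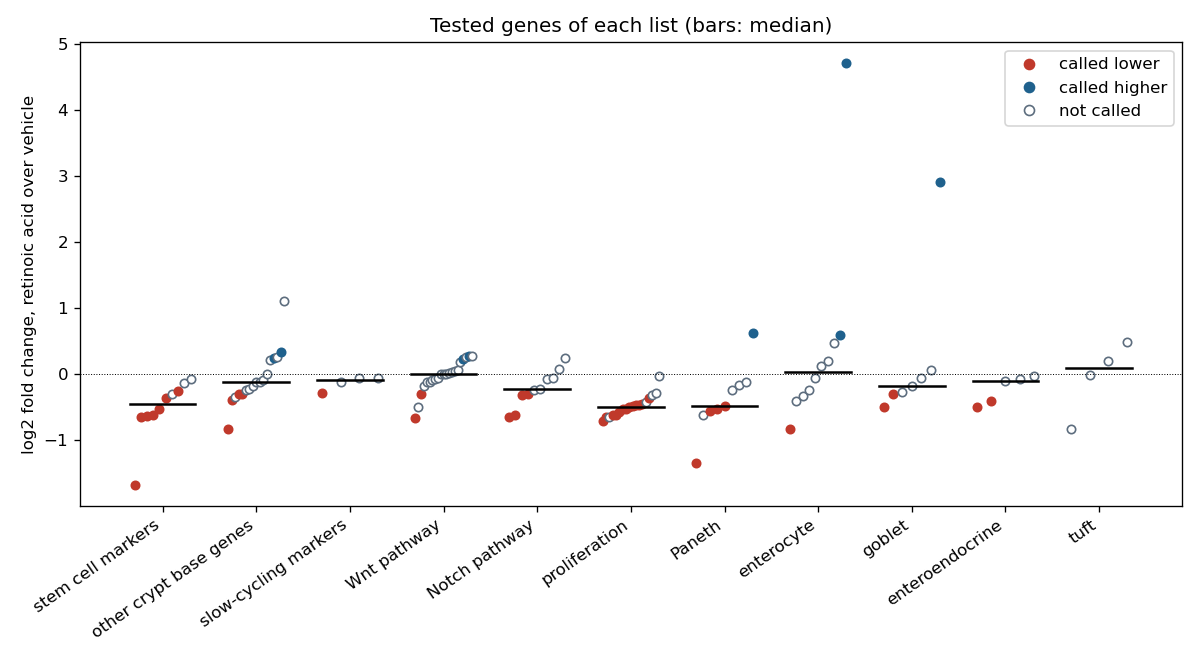
Log2 fold change, retinoic acid over vehicle (vertical axis), of every tested gene of 11 lists (1 point a gene), with the list median as a bar. The stem cell marker median of −0.44 lies near that of the proliferation genes (−0.49) and the Paneth genes (−0.48). The Wnt pathway median is 0.01, over a list that mixes signalling components with genes that Wnt signals switch on.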

How the data were processed

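Directional sequencing of polyA RNA from the organoids is stated in the labels' protocols, and the mm10 build in the submitters' processing notes. The authors deposited raw counts per gene for the 6 libraries, per the file headers. The deposited table also gives the authors' p-value and FDR and their log2 fold change, from DESeq per the file headers, which were used only for the comparison named as theirs. Of the aligner, annotation, multi-mapping and strand settings nothing is stated in the sources used here. Groups and library numbers came from sample titles.

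Counts were fitted with edgeR 4.0.16 (R 4.3.3): filterByExpr (13700 of 21534 rows kept), TMM factors (0.978 to 1.023), glmQLFit and glmQLFTest on treatment, two-sided, Benjamini-Hochberg over all tested rows at 0.05. SE is the log2 fold change divided by the square root of F, and 95% intervals use the test's degrees of freedom. The biological coefficient of variation was 7.8%. Each library counted as a separate sample. The chi-square statistic between libraries of a group was 3.96 to 10.5 per gene, which cannot tell separate cultures from separate library preparations. No column belonged to another sample. The steps were tested on simulated counts with known changes, of which 68.7% of the 1.5-fold and 87% of the 2-fold ones were called. Of the 169 calls 8.28% were genes left unchanged, more than the threshold of 0.05 aims at.

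The members and the 12 context lists (118 genes, 108 tested) were chosen with earlier results of these data known. Named genes are the 10 members, 9 fixed markers, up to 4 called genes of each list with the smallest p, and the 5 nearest profiles to Lgr5 and to Olfm4. Named besides, after their values were seen, are Mex3a, Wnt3, Ptprc, Nkd1, Znrf3, Sp5, Rnf43, Ccnd1, Myc, Notum and the members of the slow-cycling list. List genes were matched by current symbol through the gene ID, so Clca1 is the row deposited as Clca3. Alternatives were DESeq2 size factors, no count filter, DESeq2 1.42.0 (Wald test), limma-voom (limma 3.58.1), a replicate block and leaving out each library, and, added after seeing the data, leaving out library 3 of both groups and ratios to Smoc2.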

Additional observations from a re-analysis of the deposited data

How the results depend on the processing

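With DESeq2 size factors, no count filter, DESeq2 or limma-voom, 7 markers were lower. Without library 3 of both groups 6 were, and with 1 library left out 5 to 6, the 5 on leaving out retinoic acid library 1 or vehicle library 2. None was higher in any of the 12 alternatives, and Olfm4, Lgr5, Smoc2, Kcne3 and Rgmb were called lower in all of them. Ascl2 ran from −0.17 to 0.03 on leaving out 1 library, positive only without vehicle library 3 (adjusted p = 0.928, range over alternatives 0.495 to 0.999). It gave the only change of sign among 636 alternative values of 53 named genes, of which 42 lost a call and 9 gained one. The cause was not tested. Tnfrsf19 had the fewest reads of the markers, 170 to 293 a library.

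The library numbers carry no stated pairing. Deviations from the group means correlated between same-numbered libraries at 0.128, 0.098 and 0.257 for numbers 1, 2 and 3. Each library correlated best with its own number, and only number 2 lay, narrowly, under 0.1. With the replicate number as a block 1052 genes were lower and 1224 higher, against 560 and 736 without it. The block gave 8 lower markers, the added one being Prom1 (adjusted p = 0.0498), and it called Axin2 (0.0145) and Lyz1 (0.006). It also gave 7 lower other crypt base genes, 2 lower and 5 higher enterocyte genes, and 1 lower and 2 higher epithelial genes.

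Without a count filter 3 enterocyte genes were lower and 4 higher, 4 goblet genes lower and 2 epithelial genes higher. DESeq2 gave 1 lower enteroendocrine and 2 higher epithelial genes. Without library 3 of both groups 4 enterocyte, 4 goblet, 1 enteroendocrine and 1 tuft gene were lower and 2 epithelial genes higher. With 1 library left out the lower counts ran from 0 to 1 (slow-cycling), 1 to 5 (Notch), 1 to 4 (enterocyte) and 0 to 4 (goblet) and stood at 1 (enteroendocrine), and the higher counts ran from 0 to 3 (Wnt) and 0 to 1 (epithelial). Over all genes the calls ran from 289 lower and 443 higher without retinoic acid library 1 to 787 lower and 978 higher without retinoic acid library 3. The ratios to Lgr5 moved by less than the spread between libraries with a pseudocount of 2 CPM or 1 library left out. Another library scaling cancels within a library's ratio, so DESeq2 size factors are no test of it.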
